A study of Mus musculus with 24 samples.

Results

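Lcn2, which encodes the secreted iron-scavenging protein lipocalin-2, was followed in the prefrontal cortex (PFC) of mice together with 5 genes of iron handling, Cp, Tfrc, Fth1, Ftl1 and Slc40a1, so that 6 of the 14074 genes in the expression table are described. Lcn2 was chosen by its rise after dexamethasone (DEX), a synthetic agonist of the glucocorticoid receptor. Its differences between DEX and saline are therefore given as a description, with no test. The other 5 genes were chosen by their function, and their values were tested. Earlier results of these data were known at that choice, so these tests are not fully independent of it. The RNA-seq libraries came from 24 adult male C57BL/6 mice, 1 library per mouse, in 6 groups of 4. Control mice had no defeat stress, and the stressed mice had 30 days of chronic social defeat and were divided by behaviour into a passive coping strategy (PS) and an active coping strategy (AS). A day after the last session each mouse received 2 mg/kg DEX or saline, and the tissue was taken 6 h later. PS and AS were assigned from behaviour and not at random, so that the coping phenotype and any other difference between these animals cannot be told apart.

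Lipocalin-2 binds the siderophores with which bacteria take up iron, and it is a classic acute-phase protein, made in large amounts during inflammation. In the brain it is produced mainly by reactive astrocytes, endothelial cells and infiltrating neutrophils, and its gene responds to interleukin and NF-kB signals, to C/EBP transcription factors and to glucocorticoids. Iron enters cells through the transferrin receptor (Tfrc), is stored in a shell of ferritin heavy and light chains (Fth1, Ftl1), and leaves through ferroportin (Slc40a1), after which the copper enzyme ceruloplasmin (Cp), another acute-phase protein, oxidises it for loading on transferrin. Tfrc, the ferritins and ferroportin are controlled after transcription by iron regulatory proteins. These proteins bind a hairpin in the messenger RNA, the iron-responsive element: it blocks translation when it lies in the 5′ untranslated region and stabilises the message when it lies in the 3′ untranslated region.

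The hairpins are shown because they divide the 6 genes into those with and those without this control. A search of the GENCODE vM21 transcripts (GRCm38) for a C, 5 stem bases, the loop CAGTG, 1 further base and 5 bases pairing with the stem found 1 in the 5′ untranslated region of each of Fth1, Ftl1 and Slc40a1, 4 in the 3′ untranslated region of Tfrc, and 0 in the untranslated regions of Lcn2 and Cp. Each is printed 5′ to 3′ in 29 bases, with the first 5 loop bases in capitals.
Fth1, chr19:9982732-9982760, plus strand: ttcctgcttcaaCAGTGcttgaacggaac
Ftl1, chr7:45459779-45459807, minus strand: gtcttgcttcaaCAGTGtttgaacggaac
Slc40a1, chr1:45925465-45925493, minus strand: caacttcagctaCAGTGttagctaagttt
Tfrc, chr16:32631219-32631247, plus strand: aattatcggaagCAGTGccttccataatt
Tfrc, chr16:32631598-32631626, plus strand: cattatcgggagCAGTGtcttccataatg
Tfrc, chr16:32631663-32631691, plus strand: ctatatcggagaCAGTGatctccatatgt
Tfrc, chr16:32631710-32631738, plus strand: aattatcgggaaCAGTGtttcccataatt
All 7 hairpins have 5 of 5 upper stem bases paired, counting G-T pairs, because the search kept only such matches. These letters describe the genes and were not read from the libraries.

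For the acute-phase genes Lcn2 and Cp, the bases before the start of transcription were read from RefSeq (GRCm38.p6) and searched on both strands for binding motifs of the factors named above. The window was the 250 bases before the RefSeq start. The GENCODE model of Lcn2 starts further upstream, at 32388252, so that the Lcn2 window lies inside that model. The bases before the GENCODE start of Lcn2 were not searched. The parts that hold no untranslated exon are printed 5′ to 3′ on the strand of the gene, with motif matches in capitals.
Lcn2, chr2:32387798-32387989, minus strand, 192 bases: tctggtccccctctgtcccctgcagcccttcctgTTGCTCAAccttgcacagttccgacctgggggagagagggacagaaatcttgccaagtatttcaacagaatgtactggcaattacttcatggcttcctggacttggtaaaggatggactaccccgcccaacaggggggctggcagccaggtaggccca
Cp, chr3:19956804-19957053, plus strand, 250 bases: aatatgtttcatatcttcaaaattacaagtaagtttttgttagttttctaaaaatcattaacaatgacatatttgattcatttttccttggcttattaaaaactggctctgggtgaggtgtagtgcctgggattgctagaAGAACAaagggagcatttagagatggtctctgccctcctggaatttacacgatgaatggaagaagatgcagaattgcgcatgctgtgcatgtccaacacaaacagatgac
The Lcn2 window held 1 match to the C/EBP letters TTGCNNAA, at -216 to -209 from the RefSeq start, which 9.56% of all 32851 promoter windows also hold. It held no match to the glucocorticoid response element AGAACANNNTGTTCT, found in 3 of the 32851 windows (0.00913%), to its half-site AGAACA (16.1%), to the STAT letters TTCNNNGAA (7.02%), to the NF-kB letters GGGANNNTCC (3.86%) or to TATAAA (12.4%). The Cp window held 1 half-site, at -110 to -105. The window of a second, downstream Cp start, which is not printed, held a C/EBP match at -70 to -63 and TATAAA at -25 to -20, overlapped by the same letters on the other strand at -27 to -22. The half-site letters also form the ends of the full element, and no match says only that these letters are not in this window.

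The libraries held 21121869 to 59439645 recovered reads on genes. Median depth was 22869703 reads in saline-treated and 23492572 in DEX-treated controls, 24008146 and 24187702 in PS, and 34242532 and 37876626 in AS animals, so that AS libraries were on the whole deeper. Values are normalized read counts, in which the authors divided each library's counts by a size factor, given as mean ± SD with n = 4 per group. Differences are log2 fold changes of normalized count + 1 from 1 limma model over the 24 libraries. A gene was called at a Benjamini-Hochberg adjusted p under 0.1 over all 14074 genes. Fkbp5, a standard glucocorticoid receptor target, rose with DEX in controls, PS and AS animals by log2 2.26, 2.00 and 1.91 (SE 0.11 each, limma adjusted p of 9.31e-13, 1.35e-11 and 3.79e-11), as the DEX labels say. Of 4 such targets 3, 4 and 3 rose in the 3 phenotypes. All 8 markers of cortical pyramidal neurons were in the table and summed to between 158539 and 228750 normalized counts. Of 8 striatal markers 5 were in the table, at a sum of 3551 to 5721.

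Lcn2 (ENSMUSG00000026822.14; chromosome 2, 32384633 to 32388252, minus strand) was near the detection limit without DEX and higher in each DEX-treated animal. In saline-treated controls it had 0, 1.23, 6.79 and 1.17 normalized counts in mice 106, 107, 109 and 117. In DEX-treated controls it had 84.9, 80.7, 36.9 and 75.5 in mice 101, 108, 112 and 122. The lowest of these, mouse 112, was still above every saline-treated animal of the study.

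In saline-treated PS animals Lcn2 had 2.55, 5.15, 1.28 and 6.31 normalized counts in mice 2, 28, 62 and 68, and in DEX-treated PS animals 18.4, 10.3, 15.8 and 44.6 in mice 6, 34, 52 and 56. In saline-treated AS animals it had 3.54, 0.745, 6.13 and 1.75 in mice 8, 14, 40 and 44, and in DEX-treated AS animals 8.53, 16.3, 18.2 and 38.0 in mice 38, 42, 60 and 72. The 12 DEX-treated animals, at 8.53 to 84.9, lay apart from the 12 saline-treated animals, at 0 to 6.79. These levels rest on few reads: 0 to 11 reads in the saline libraries and 12 to 67 in the DEX libraries. The library with 0 reads, control mouse 106, is compatible by counting error alone with up to 3.

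**Figure D1:**
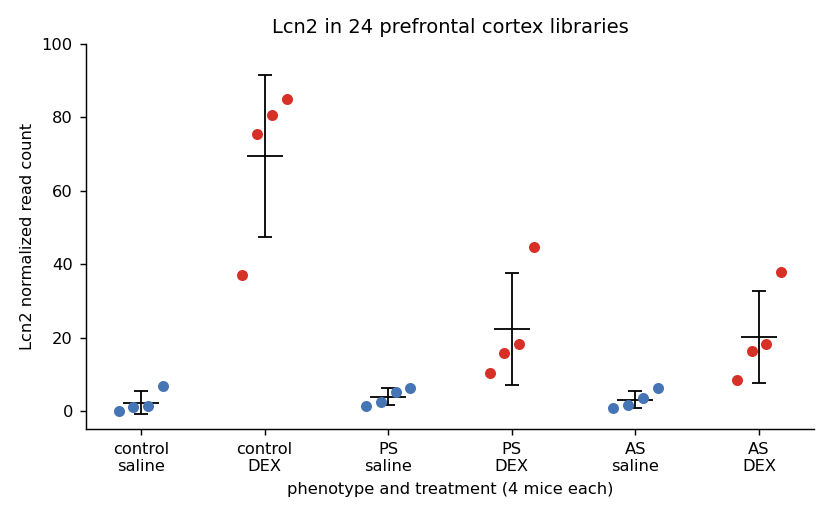
Lcn2 in normalized read counts (y axis) in the 6 groups (x axis); each point is 1 mouse, and the bar and whiskers are the mean ± SD of 4. All DEX-treated animals (red) lie above all saline-treated animals (blue), and 3 of 4 DEX-treated controls, at 75.5 to 84.9, lie above every other library.

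The group means were 2.30 ± 3.05 with saline and 69.5 ± 22.0 with DEX in controls, a ratio of 30.2. They were 3.82 ± 2.31 and 22.3 ± 15.3 in PS animals, a ratio of 5.83, and 3.04 ± 2.36 and 20.2 ± 12.6 in AS animals, a ratio of 6.65. On the fitted scale the differences were log2 4.76 in controls, 2.21 in PS and 2.41 in AS animals (SE 0.57 each), ranks 1, 7 and 5 from the top among the 14074 genes. With a pseudocount of 8 in place of 1 the differences were 2.90, 1.26 and 1.28. In these contrasts 4.03%, 2.74% and 3.82% of all genes were called higher with DEX and 2.46%, 2.62% and 4.95% lower. In 10.1%, 10.1% and 9.02% of genes the DEX and saline libraries did not overlap. As Lcn2 was selected on these contrasts, its own place in them is not a result.

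Under DEX, the difference of Lcn2 between stressed and control animals was log2 -1.73 for PS (SE 0.57, 95% interval -2.91 to -0.55, limma adjusted p = 0.207) and -1.84 for AS (SE 0.57, -3.02 to -0.67, adjusted p = 0.159). Neither difference was called. The PS and AS groups each overlapped the controls, since control mouse 112 had 36.9 normalized counts, below PS mouse 56 at 44.6 and AS mouse 72 at 38.0. The DEX-treated libraries on both sides of these comparisons, control and stressed, are among those on which Lcn2 was selected. These values and their adjusted p are therefore not independent of its choice. The AS difference depended on the model: its adjusted p was 0.0242 with DESeq2, 0.0537 with edgeR, 0.0452 with a pseudocount of 8 and 0.653 with library size as a covariate, and 0.0876 without control mouse 112. The PS difference had an adjusted p of 0.0722 with a pseudocount of 8 and 0.0818 with DESeq2, and 0.262 at the highest over the models. When single libraries were left out, the adjusted p reached 0.431 for PS and 0.374 for AS.

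With saline, Lcn2 was log2 0.82 higher in PS than in control animals (SE 0.57, -0.36 to 1.99, limma adjusted p = 0.571) and 0.51 higher in AS animals (SE 0.57, -0.67 to 1.69, adjusted p = 0.755), within the spread of the replicates. The saline-treated libraries, control and stressed, also entered the choice of the gene. AS and PS differed by -0.31 (-1.48 to 0.87, adjusted p = 0.967). The DEX difference of Lcn2 minus that in controls was log2 -2.55 for PS and -2.35 for AS animals (SE 0.80 each), which is given as a description because it is built from the choosing contrasts.

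Ceruloplasmin (Cp, ENSMUSG00000003617.16; chromosome 3, 19957054 to 20009145, plus strand) rose with DEX in controls. It had 328, 369, 559 and 344 normalized counts in saline-treated control mice 106, 107, 109 and 117, and 790, 758, 611 and 716 in DEX-treated control mice 101, 108, 112 and 122. The groups did not overlap, although saline-treated mouse 109 stood well above its 3 group mates. The means were 400.0 ± 107 and 719 ± 77.7, a ratio of 1.80. The fitted difference was log2 0.87 (SE 0.23, 95% interval 0.40 to 1.35, limma adjusted p = 0.0287). Without control mouse 106 the adjusted p was 0.102, and it passed the threshold without any other single library.

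In stressed animals Cp showed no such difference that the test could call. It was 466 ± 114 with saline and 461 ± 169 with DEX in PS, a log2 difference of -0.07 (-0.54 to 0.41, limma adjusted p = 0.956). It was 499 ± 94.7 and 437 ± 110 in AS animals, a difference of -0.20 (-0.68 to 0.27, adjusted p = 0.730). The DEX-treated PS libraries were widely spread, from 249 in mouse 34 to 663 in mouse 56. These 2 libraries also had the lowest and the highest sum of leptomeningeal markers of their group, as described with those markers. Under DEX, the difference of Cp from controls was log2 -0.72 in PS (SE 0.23, adjusted p = 0.196) and -0.74 in AS animals (SE 0.23, adjusted p = 0.160). The difference between the responses was -0.94 for PS (SE 0.33, adjusted p = 0.367) and -1.08 for AS (SE 0.33, adjusted p = 0.155). None of these 4 differences was called, so a different response of Cp in stressed animals was not shown. Leaving out single libraries moved some of them past the threshold. The PS difference under DEX had an adjusted p of 0.0850 without PS mouse 56, and the AS difference had 0.0670 without PS mouse 34. The AS difference in response had 0.0806 without control mouse 112 or AS mouse 44, and 0.0822 without PS mouse 34. Without other single libraries the adjusted p rose to 0.464 for PS and 0.376 for AS under DEX. For the differences in response it rose to 0.653 for PS and 0.348 for AS. Over the other models the AS difference under DEX reached 0.741.

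Ferroportin (Slc40a1, ENSMUSG00000025993.10; chromosome 1, 45908068 to 45926523, minus strand), the only known iron exporter of mammalian cells, also rose with DEX in controls. Saline-treated control mice 106, 107, 109 and 117 had 242, 241, 283 and 201 normalized counts, and DEX-treated control mice 101, 108, 112 and 122 had 402, 360, 343 and 299. The groups did not overlap, but the nearest libraries, at 283 and 299, were close. The means were 242 ± 33.5 and 351 ± 42.9, a ratio of 1.45, and the fitted difference was log2 0.54 (SE 0.15, 0.23 to 0.85, limma adjusted p = 0.0381). The adjusted p was 0.134 without saline-treated mouse 117 and 0.136 without DEX-treated mouse 101.

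Slc40a1 was 278 ± 34.5 with saline and 254 ± 53.9 with DEX in PS animals (log2 -0.14, -0.45 to 0.17, limma adjusted p = 0.803) and 269 ± 48.8 and 243 ± 32.7 in AS animals (-0.14, -0.45 to 0.17, adjusted p = 0.717). Under DEX its difference from controls was log2 -0.48 in PS (SE 0.15, adjusted p = 0.190) and -0.53 in AS animals (SE 0.15, adjusted p = 0.121). The difference between the responses was -0.68 for PS (SE 0.21, adjusted p = 0.367) and -0.68 for AS (SE 0.21, adjusted p = 0.160). As for Cp, none of these was called. With DESeq2 the AS difference under DEX had an adjusted p of 0.0385 and that in response 0.0773, and over the other models the first reached 0.646. Without single libraries the AS difference under DEX had an adjusted p of 0.0627 (without PS mouse 34), 0.0868 (without AS mouse 44) and 0.0742 (without AS mouse 60), and that in response 0.0698 without AS mouse 44. Without other single libraries the adjusted p rose to 0.369 under DEX and 0.375 in response.

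**Figure D2:**
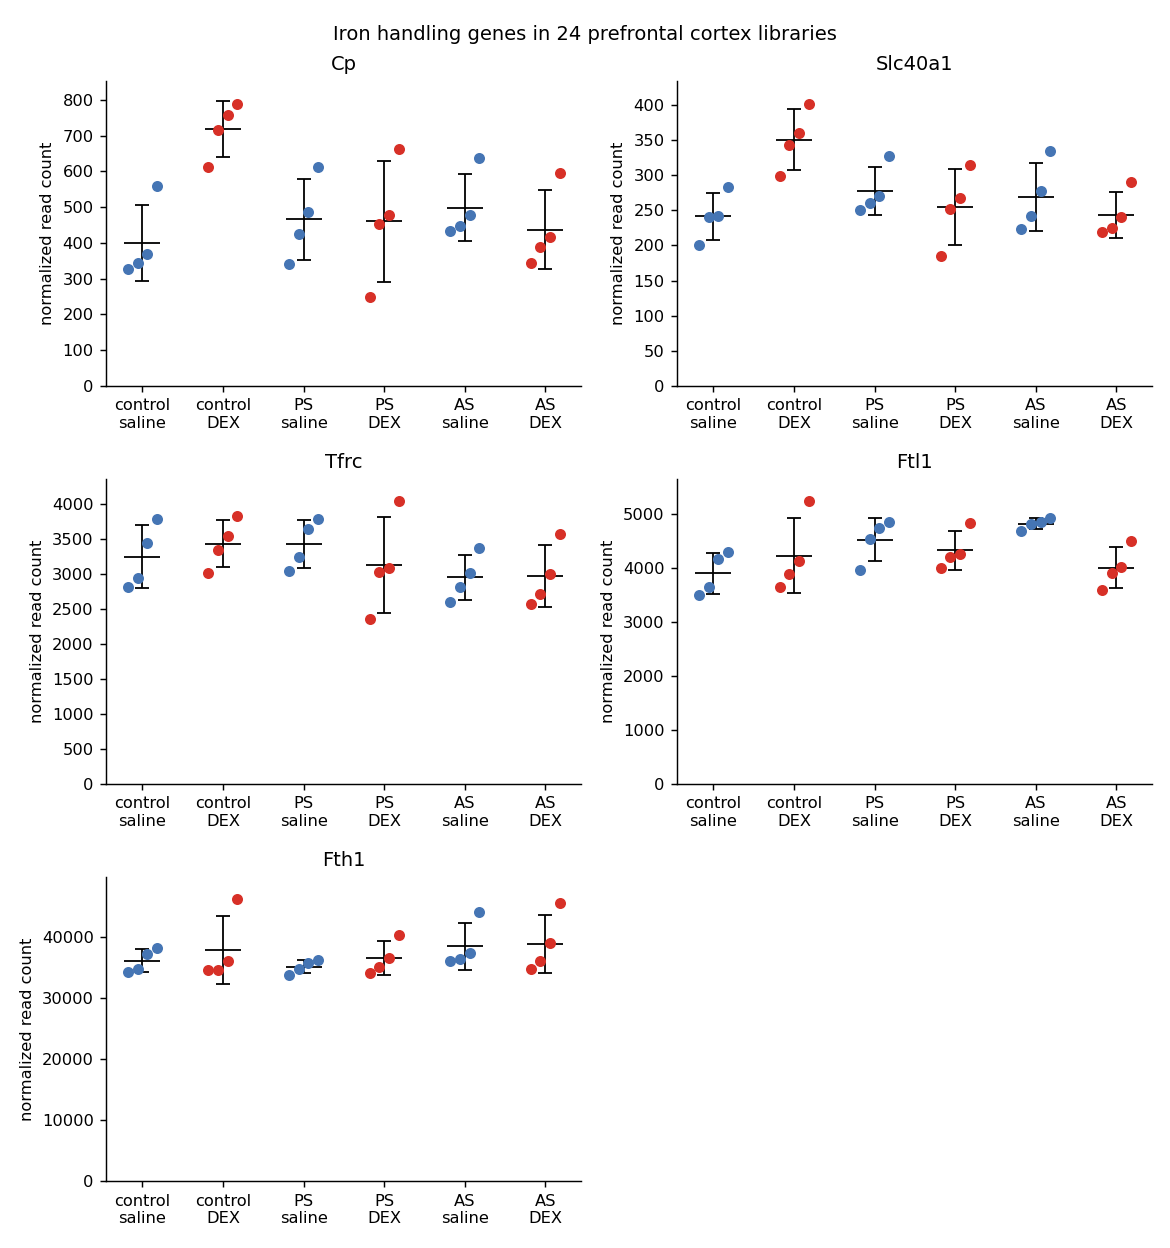
Normalized read counts (y axes, from 0) of Cp, Slc40a1, Tfrc, Ftl1 and Fth1 in the 6 groups; points are mice (blue saline, red DEX), bars and whiskers the mean ± SD of 4. Cp and Slc40a1 are higher in DEX-treated than in saline-treated controls without overlap, while Tfrc and Fth1 overlap between saline and DEX in each phenotype.

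The light chain of ferritin (Ftl1, ENSMUSG00000050708.16; chromosome 7, 45457944 to 45459884, minus strand) was lower with DEX in AS animals. It had 4817, 4690, 4851 and 4933 normalized counts in saline-treated AS mice 8, 14, 40 and 44, and 4023, 3586, 4504 and 3906 in DEX-treated AS mice 38, 42, 60 and 72. The groups did not overlap, and the saline libraries were unusually close to each other. The means were 4823 ± 101 and 4004 ± 381, a ratio of 0.830, and the fitted difference was log2 -0.27 (SE 0.09, -0.47 to -0.08, limma adjusted p = 0.0971), just inside the threshold. It was no longer called in 16 of the 24 fits that left out 1 library, with an adjusted p of up to 0.301 without AS mouse 42. Those libraries were control mice 106, 107, 108 and 122, PS mice 2, 28, 62, 6 and 56, and AS mice 8, 14, 40, 44, 38, 42 and 72. The exons of Ftl1 are overlapped on the same strand by the microRNA gene model Gm22133, so reads shared by both may not have been counted.

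In the other phenotypes Ftl1 was not called: it was 3901 ± 386 and 4233 ± 698 in controls (log2 0.11, -0.09 to 0.31, limma adjusted p = 0.672), and 4528 ± 394 and 4328 ± 363 in PS animals (-0.06, -0.26 to 0.13, adjusted p = 0.874). With saline, Ftl1 was log2 0.31 higher in AS than in control animals (SE 0.09, adjusted p = 0.242) and 0.22 higher in PS (SE 0.09, adjusted p = 0.324), neither of them called. The difference between the DEX responses of AS and control animals was -0.38 (SE 0.13, adjusted p = 0.202). Its adjusted p was 0.0814 without control mouse 112 and up to 0.464 without another single library.

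The heavy chain of ferritin (Fth1, ENSMUSG00000024661.7; chromosome 19, 9980598 to 9985098, plus strand), which carries the ferroxidase activity, was called in no comparison. Its group means lay between 35151 ± 1066 in saline-treated PS and 38860 ± 4765 in DEX-treated AS animals. The DEX differences were log2 0.06 in controls (-0.13 to 0.26, limma adjusted p = 0.847), 0.05 in PS (-0.14 to 0.25, adjusted p = 0.899) and 0.01 in AS animals (-0.19 to 0.21, adjusted p = 0.974). The 24 libraries ran from 33838 to 46194, and 3 stood apart at the top: DEX-treated control mouse 101 at 46194, saline-treated AS mouse 44 at 44160 and DEX-treated AS mouse 60 at 45495. One ferritin pseudogene, Fth-ps2, was in the table, at a mean of 12.0 normalized counts. This level does not say how many reads of Fth1 match the pseudogene as well. Pseudogenes that are not in the table were not assessed.

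The transferrin receptor (Tfrc, ENSMUSG00000022797.16; chromosome 16, 32608920 to 32632794, plus strand) was called in no comparison either. It was 3246 ± 452 with saline and 3433 ± 342 with DEX in controls (log2 0.09, -0.19 to 0.36, limma adjusted p = 0.845). It was 3426 ± 343 and 3126 ± 691 in PS (-0.15, -0.42 to 0.12, adjusted p = 0.730) and 2947 ± 325 and 2964 ± 445 in AS animals (0.00, -0.27 to 0.27, adjusted p = 0.996). DEX-treated PS mice spanned the whole range of the study, from 2356 in mouse 34 to 4035 in mouse 52.

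**Figure D3:**
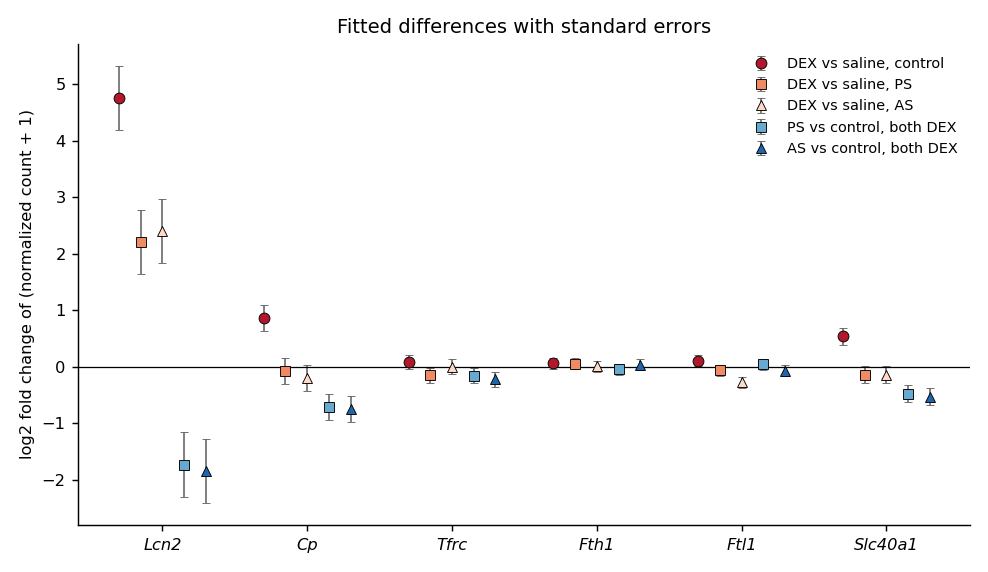
Fitted log2 fold changes of normalized count + 1 (y axis) for the 6 genes (x axis) in 5 comparisons, with standard errors. Lcn2 has the largest differences, from 4.76 in controls to -1.84 between DEX-treated AS and control animals, and Cp and Slc40a1 are above 0 for DEX in controls and below 0 between stressed and control animals under DEX.

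Counted over the comparisons, limma called 2 of the 5 tested genes with DEX in controls (Cp and Slc40a1), where it called 6.49% of all genes. It called 0 of 5 in PS animals, where 0 of 5 also had an unadjusted p under 0.05 and 5.36% of all genes were called, and 1 of 5 in AS animals (Ftl1), where 8.77% were called. edgeR and DESeq2 on the recovered reads gave the same 3 counts. In the DEX difference averaged over the 3 phenotypes limma called 0 of 5, with 0 of 5 at an unadjusted p under 0.05 and 0 by edgeR or DESeq2, where 15.5% of all genes were called.

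Under stress with saline limma called 0 of the 6 genes in PS and in AS animals, where it called 1.51% and 0.156% of all genes. Of the 6, Ftl1 alone had an unadjusted p under 0.05 in both, a level that 1850 and 1548 of the 14074 genes also reached, so that 1 of 6 is near the share of all genes. edgeR and DESeq2 called 0 of the 6. Between AS and PS animals with saline limma called 0 of 6 (0 at an unadjusted p under 0.05, 0 by edgeR and DESeq2) and 0% of all genes. There 671 genes had an unadjusted p under 0.05, and edgeR called 0 and DESeq2 11 genes.

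Under DEX, limma called 0 of 6 between PS and control animals and 0 of 6 between AS and control animals, where it called 0.199% and 0.867% of all genes. Cp and Slc40a1 had an unadjusted p under 0.05 in both, as did 1975 and 1891 of the 14074 genes. Lcn2 did too, but it was chosen partly on the DEX-treated libraries of each phenotype, so its place in these counts is not independent of its choice. DESeq2 called 1 (Lcn2) and 2 (Lcn2 and Slc40a1) of the 6 genes, and 225 and 417 of all, and edgeR called 0 and 1 (Lcn2) of the 6, and 26 and 145 of all. For the interactions limma called 0 of 5 for PS, where it called 0% of all genes, with 1404 genes at an unadjusted p under 0.05, 0 genes called by edgeR and 23 by DESeq2, and 0 of 5 for AS, where 0.348% were called. Cp and Slc40a1 for PS, and Cp, Slc40a1 and Ftl1 for AS, had an unadjusted p under 0.05, as did 1902 of all genes for AS. DESeq2 called 0 of 5 and 1 of 5, edgeR 0 in both.

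Per kilobase of exon, the mean level over the 24 libraries rose from Lcn2 (7.70 normalized counts per kilobase) through Slc40a1 (30.3), Cp (51.9), Tfrc (516) and Ftl1 (3211) to Fth1 (10717). This order held in 24 of 24 libraries at each step. The ranges over libraries overlapped between Lcn2 and Slc40a1 and between Slc40a1 and Cp, and did not overlap at the 3 higher steps. The coefficient of variation over all libraries was 130% for Lcn2, 29.6% for Cp, 19.5% for Slc40a1, 14.0% for Tfrc, 11.4% for Ftl1 and 9.47% for Fth1.

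The genes whose log2 levels were most like those of Lcn2 over the 24 libraries, of the 13542 genes whose mean reached 10, were Mertk (r = 0.93), a phagocytic receptor of astrocytes and microglia, Serpinb8 (0.92), a protease inhibitor, Fgfr3 (0.92), a receptor of astrocytes, Adipor2 (0.92), an adiponectin receptor, and Pcsk7 (0.92), a proprotein convertase known for cleaving transferrin receptor 1. These correlations describe saline and DEX libraries that lie apart, and are given with no test. After subtraction of the group means they were 0.65, 0.69, 0.56, 0.64 and 0.88. Mertk had mean normalized counts of 1585, 1590 and 1579 with saline and 2494, 2133 and 2263 with DEX in control, PS and AS animals.

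For the other genes the most similar were Slc6a13 for Cp (r = 0.92, and 0.91 within groups), a GABA transporter of the leptomeninges, Apoe for Ftl1 (0.90 and 0.90), Csrp1 for Fth1 (0.91 and 0.93), Gpcpd1 for Tfrc (0.85 and 0.82) and Snx33 for Slc40a1 (0.79 and 0.74). Among the 6 genes themselves r was 0.66 between Cp and Slc40a1 and 0.59 between Lcn2 and Cp, and within groups 0.41 and 0.60. The ferritin chains had r = 0.57 overall and 0.80 within groups. Ftl1 and Tfrc were inversely related, at -0.48 overall and -0.65 within groups. All pairs share library depth and tissue composition.

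Of 28 further acute-phase protein genes, 8 were in the table. With DEX 4 of the 8 rose in controls, 2 in PS and 2 in AS animals, and 0 fell in each. Their median log2 difference was 0.43, 0.20 and 0.23, against -0.01, 0.00 and 0.00 over all genes. Of all genes 4.03%, 2.74% and 3.82% were called higher with DEX in control, PS and AS animals, and 2.46%, 2.62% and 4.95% lower. The DEX counts of the lists and markers that follow are to be read beside the same shares. In PS and AS animals Mt2 and Mt1 alone were called. The metallothioneins Mt2 and Mt1, which bind zinc and copper, rose in all 3 phenotypes. Mt2 rose by log2 1.19, 0.86 and 0.90 in control, PS and AS animals (SE 0.15 each, limma adjusted p of 9.94e-06, 0.000678 and 0.000371). Mt1 rose by 0.69, 0.55 and 0.58 (SE 0.13 each, adjusted p of 0.00222, 0.0183 and 0.00954). Lbp, the lipopolysaccharide-binding protein, rose in controls by 1.18 (SE 0.27, adjusted p = 0.010), and had 0.04 and 0.32 in PS and AS animals (adjusted p of 0.977 and 0.611). Serpina3n, an inhibitor of serine proteases, rose in controls by 0.38 (SE 0.12, adjusted p = 0.0677), with 0.25 and 0.18 in PS and AS animals (adjusted p of 0.330 and 0.461). For the difference in response from controls 0 of the 8 were called in PS and 0 in AS animals, so a different response was not shown. The classical acute-phase genes Saa1, Saa3, Hp, Orm1 and C3 were among the 20 that are not in the table and were not assessed.

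Of 19 genes that feed into Lcn2 transcription, 12 were in the table: 3 rose in controls, 3 in PS and 2 in AS animals, and 1 fell in AS animals. Their median log2 difference was 0.11, 0.08 and -0.08. Of the 3 C/EBP factors, 2 rose in each phenotype, Cebpa by log2 1.01, 0.71 and 0.58 (SE 0.10 each, limma adjusted p of 7.26e-07, 0.000132 and 0.00108) and Cebpd by 0.64, 0.99 and 0.58 (SE 0.18 each, adjusted p of 0.0496, 0.00172 and 0.0648). The other, Cebpb, had 0.24, 0.18 and -0.11 (SE 0.12 each, adjusted p of 0.339, 0.597 and 0.734). Nfkbia, the inhibitor of NF-kB, rose in control and PS animals by 0.56 and 0.50 (SE 0.12 each, adjusted p of 0.00379 and 0.0110), and had 0.11 in AS animals (adjusted p = 0.711). Nfkb1 fell in AS animals, at log2 -0.23 (SE 0.07, adjusted p = 0.0665). For the difference in response from controls 0 of the 12 were called in PS and 0 in AS animals. The cytokines Il1b, Il6 and Tnf are not in the table.

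Of 5 receptors and partners of lipocalin-2, 2 were in the table, and 1 rose in AS animals. Mc4r, the melanocortin 4 receptor, rose there by log2 1.72 (SE 0.46, limma adjusted p = 0.0241), and had 1.36 in PS (adjusted p = 0.113) and 0.53 in controls (adjusted p = 0.669). The other, Slc22a17, the lipocalin-2 receptor, had differences of -0.10, 0.14 and 0.00 (SE 0.07 each, adjusted p of 0.559, 0.405 and 0.995). Of 17 other lipocalins, 3 were in the table, and Apod, which encodes apolipoprotein D, rose in controls by 0.63 (SE 0.20, adjusted p = 0.0780), with 0.28 and -0.06 in PS and AS animals (adjusted p of 0.625 and 0.930). For the difference in response from controls 0 genes of both lists were called in PS and 0 in AS animals.

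Of 13 genes of iron uptake and transport, 9 were in the table, 0 rose, and 1 fell in PS and in AS animals. This was Steap3, a ferrireductase of the transferrin cycle, at log2 -0.73 and -0.71 (SE 0.12 each, limma adjusted p of 0.000566 and 0.000725), with -0.23 in controls (adjusted p = 0.382). Of 16 genes of storage, export and iron regulation, 10 were in the table, 0 rose, and 1 fell, Hjv (hemojuvelin, a regulator of hepcidin), at -0.74 in AS animals (SE 0.22, adjusted p = 0.0478). In these 2 lists the medians lay between log2 -0.11 and 0.04 in the 3 phenotypes, and 0 genes were called for a difference in response between stressed and control animals. Trf, transferrin itself, had a mean of only 73.1 normalized counts. Its exons are overlapped on the same strand by the gene model Gm20425, so reads shared by both may not have been counted and its level is uncertain.

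**Figure D4:**
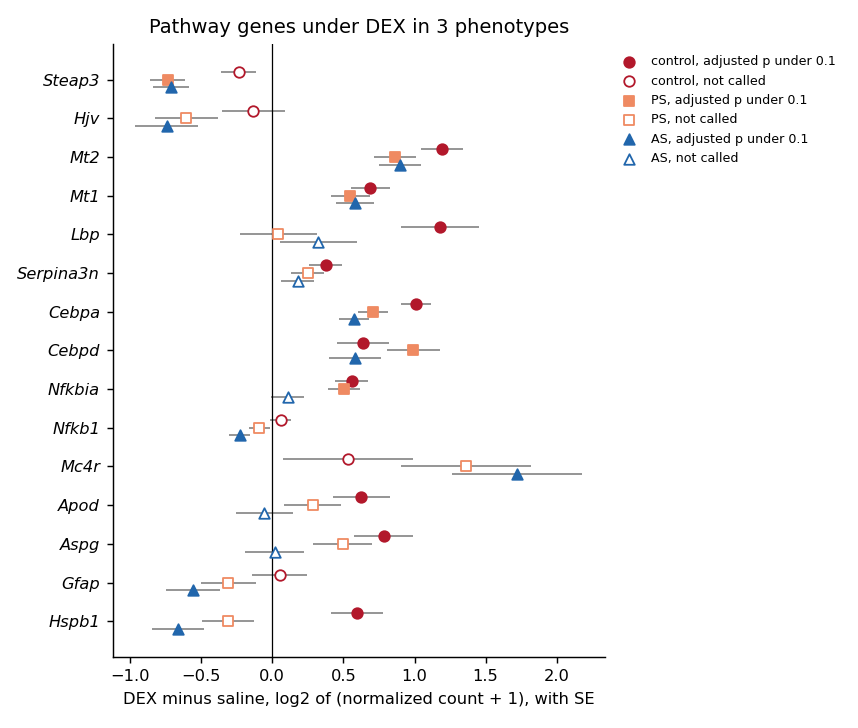
DEX minus saline on the log2 scale (x axis, with standard errors) in control, PS and AS animals for the pathway genes named by rule (y axis); filled symbols passed an adjusted p under 0.1. Mt1, Mt2, Cebpa and Cebpd are filled in all 3 phenotypes, and Lbp, Serpina3n, Apod and Aspg are filled for controls and open for PS and AS. A filled beside an open symbol does not show that the phenotypes differ.

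Of 11 genes of reactive astrocytes, the list to which Lcn2 itself usually belongs, 6 were in the table. With DEX 3 rose in controls and 3 fell in AS animals, with medians of log2 0.38, -0.21 and -0.39 in control, PS and AS animals. Aspg rose in controls by 0.78 (SE 0.21, limma adjusted p = 0.0287), with 0.50 and 0.02 in PS and AS animals (adjusted p of 0.252 and 0.982). Serpina3n, another of the 3 that rose in controls, is also counted among the acute-phase genes above. Hspb1, a small heat shock protein that is also expressed by vessels, rose in controls by 0.59 (SE 0.18, adjusted p = 0.0687) and fell in AS animals, at -0.66 (SE 0.18, adjusted p = 0.0314), and its response differed between AS and control animals (-1.25, SE 0.26, adjusted p = 0.0711). Gfap, the astrocyte filament protein, fell in AS animals, at -0.56 (SE 0.19, adjusted p = 0.0954). Vim, another filament protein, fell in AS animals, at -0.54 (SE 0.15, adjusted p = 0.0375), and its response differed between AS and control animals (-0.93, SE 0.22, adjusted p = 0.0954). Hspb1 and Vim were the 2 of the 6 called for a difference in response in AS animals, and 0 were called in PS. Of all genes 0.348% were called for that difference in AS animals, 49 genes, and 7 with library size as a covariate. Whether Hspb1 and Vim stay called in the other models was not assessed.

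Markers of other cell types were measured in the same libraries, since Lcn2, Cp and Slc40a1 are also made outside the neural tissue proper. In bulk tissue, fewer cells of a type and less RNA per cell cannot be told apart. Of 10 neutrophil markers 0 were in the table, and of 8 choroid plexus markers 1 was, Aqp1, at 9.21 to 199.9 normalized counts, while Ttr, Folr1 and Kl were not, so that these cells could not be followed further. Of 10 endothelial markers, all in the table, the summed level was 5947 to 7993 normalized counts in saline-treated and 6429 to 9713 in DEX-treated controls. It was 5460 to 7891 and 3486 to 7820 in PS, and 5275 to 8654 and 3823 to 6064 in AS animals.

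The median log2 difference of the endothelial markers with DEX was 0.26 in controls, -0.33 in PS and -0.67 in AS animals. Of the 10, 0 were called in controls, 1 fell in PS and 5 fell in AS animals, among them Tek at -1.25 (SE 0.25, limma adjusted p = 0.00280). Of all genes 2.62% in PS and 4.95% in AS animals were called lower. Between DEX-treated AS and control animals 3 of 10 were lower, Kdr, Flt1 and Slco1a4, where 0.867% of all genes were called. For the difference in response from controls 0 of the 10 were called in PS and 0 in AS animals. Of 8 leptomeningeal markers 7 were in the table, and their sums ran from 1836 to 3210 and from 2567 to 4150 in saline-treated and DEX-treated controls, from 1974 to 4469 and from 967 to 3837 in PS, and from 2865 to 4435 and from 1824 to 3307 in AS animals. Their medians were 0.39, -0.77 and -0.62, with 1 called higher in controls (Slc6a13, the gene most like Cp) and 1 lower in AS animals. Of these 7, too, 0 were called for a difference in response.

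The medians of these sums were higher with DEX in controls and lower with DEX in PS and AS animals. Cp and Slc40a1 likewise rose with DEX in controls and had small negative differences, none called, in PS and AS animals. Library by library, Cp went with the leptomeningeal sum: within groups r was 0.93 (0.79 over the 24 libraries), and in 6 of 6 groups the library with the highest sum also had the highest Cp. In DEX-treated PS animals, for example, mouse 34 had the lowest sum (967) and the lowest Cp (249), and mouse 56 the highest sum (3837) and the highest Cp (663). Lcn2 had r = 0.47 within groups and 0.07 overall with the leptomeningeal sum, and 0.63 and 0.11 with the endothelial sum, and its highest library was that of the marker sum in 5 of 6 groups for each of the 2 lists. Slc40a1 had 0.34 and 0.46 with the leptomeningeal and 0.64 and 0.66 with the endothelial sum. The ferritins and Tfrc had between -0.14 and 0.31 with both sums. With the sum of blood markers, r within groups was 0.60 for Ftl1, 0.53 for Fth1 and -0.49 for Tfrc (0.36, 0.36 and -0.15 overall), and the library with the highest blood sum also had the highest Ftl1 in 4 of 6 groups. In AS animals, where Ftl1 fell with DEX, the median blood sum was 2097 with saline and 1515 with DEX, with overlapping libraries, and its part in the value of Ftl1 was not tested. These correlations are a description, as Slc6a13 is itself a marker and all values share a library. The part of vessels and leptomeninges in the values of Cp, Slc40a1 and Lcn2 was not tested. The 5 blood markers were called in no DEX comparison, with medians of 0.36, -0.80 and -0.19, and their sums ran from 1123 to 4386 over the 24 libraries. Oligodendrocyte markers went the other way, with medians of -0.30, 0.15 and 0.48, 1 of 8 lower in controls and 3 of 8 higher in AS animals. Astrocyte markers had medians of 0.19, -0.15 and -0.09, with 3 of 8 higher in controls, 3 higher and 1 lower in PS, and 2 higher and 2 lower in AS animals. Microglia markers had -0.02, -0.32 and -0.34, with 1 of 8 higher and 2 lower in controls, and 4 lower in PS and in AS animals. Of the oligodendrocyte, astrocyte and microglia markers 0 were called for a difference in response between stressed and control animals. Markers of pyramidal neurons (8 of 8 in the table), striatum (5 of 8) and ependyma (3 of 6) had medians between -0.32 and 0.21.

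**Figure D5:**
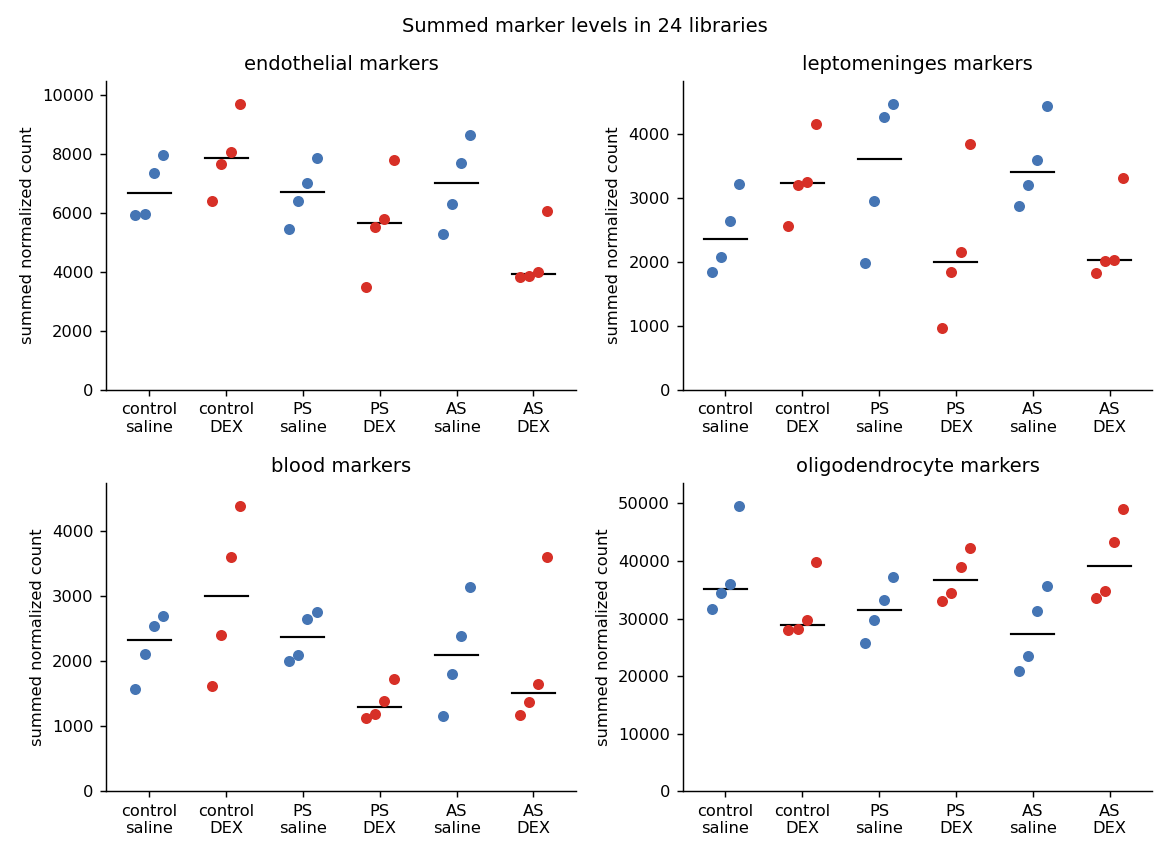
Summed normalized counts (y axes, from 0) of 10 endothelial, 7 leptomeningeal, 5 blood and 8 oligodendrocyte markers in the 6 groups; points are mice (blue saline, red DEX) and bars are medians. Endothelial and leptomeningeal sums have a higher median with DEX in controls and a lower one with DEX in PS and AS animals, with overlapping libraries.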

How the data were processed

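RNA of the PFC (RIN above 8) was selected for poly(A) and sequenced paired-end from directional libraries. The authors trimmed reads with fastp 0.20.1, aligned them to mm10 with HISAT2 2.2.1, counted them on GENCODE genes with featureCounts (Subread 2.0) and used DESeq2 1.36.0. The deposited signal values are counts that the authors divided by 1 size factor per library, and 100% of them were whole reads within 0.01 read, so that reads were recovered for depth and count models. Deposited tables of the authors' own comparisons (fold changes, p-values) were not used.

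All 14074 genes entered limma 3.58.1 (R 4.3.3, trend) on log2(normalized count + 1), with 1 mean per group. Alternatives were edgeR 4.0.16 and DESeq2 1.42.0 on recovered reads, edgeR after thinning, TMM and quantile scaling, a pseudocount of 8, filters at 10, a library size covariate, only the groups compared, and each library left out. The fits were also run on simulated counts with known changes in DEX-treated controls only. That run does not bear on differences in tissue composition between mice. Samples were grouped by their library names, in which dep1 was read as PS and dep2 as AS. Each library is 1 mouse, and replicates differed beyond sampling noise (chi-square per gene of 5.74 to 81.8). Intervals cover 95%, and floors cover counting error only.

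The members and lists were chosen with earlier results of these data known. Named besides the members were Fkbp5, up to 4 genes per pathway list with the largest mean DEX difference among those called in at least 1 phenotype, the 5 genes most like Lcn2 and 1 like each other member, and ferritin pseudogenes. The result of 1 further pathway list is not reported here. Slc22a17, Trf, Vim and single marker genes were named after their values were seen. Gene models and lengths came from GENCODE vM21 (GRCm38), in which 14061 of the 14074 identifiers matched.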

Additional observations from a re-analysis of the deposited data

Results flagged for a closer look

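Fth1 stood out in 2 single libraries among 36 sets of 4 libraries examined for a library far from its group, a check that chance alone triggers in about 1 of 20 sets. DEX-treated control mouse 101 had 46194 normalized counts of Fth1, while its 3 group mates had 34633 to 36116. Saline-treated AS mouse 44 had 44160, while its group mates had 36108 to 37387. Neither library changes a call for Fth1, which was called in no comparison.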

How the results depend on the processing

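No paired analysis was possible because the mouse numbers do not recur between groups. The count of genes called with DEX in AS animals, 1 (Ftl1), became 0 with quantile normalization, with library size as a covariate and with edgeR on thinned reads, and ran from 0 to 1 when single libraries were left out. The count of 2 in controls ran from 1 to 2 (1 without control mice 106, 117 or 101). The count of 0 between PS and control animals under DEX became 1 with a pseudocount of 8 and with DESeq2, and ran from 0 to 1 without single libraries (1 without PS mouse 56). That between AS and control animals under DEX became 1 with a pseudocount of 8, with edgeR and with thinned reads, and 2 with only the groups compared and with DESeq2, and ran from 0 to 2 (above 0 without control mouse 112, PS mouse 34, AS mouse 44 or AS mouse 60). That for the interaction in AS became 1 with only the groups compared and with DESeq2, and ran from 0 to 2 (above 0 without control mouse 112, PS mouse 34 or AS mouse 44). The gains concern Lcn2, Cp, Slc40a1 and Ftl1, and those of Lcn2 are not independent of its choice. The cause was not tested. All other counts of members stayed the same in every fit.

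Differences near 0 changed sign: for DEX in AS animals Tfrc was -0.028 with quantile normalization and -0.0034 with the covariate, and Fth1 -0.031 with quantile normalization, while Fth1 was 0.014 for the interaction in PS with it. Without single libraries the values ran, for AS against PS with saline, from -0.025 to 0.26 (Cp), from -0.64 to 0.032 (Lcn2) and from -0.16 to 0.031 (Slc40a1). For DEX in PS they ran from -0.27 to 0.20 (Cp) and from -0.25 to 0.0015 (Slc40a1), and for DEX in controls from -0.038 to 0.10 (Fth1). For DEX in AS they ran from -0.068 to 0.078 (Fth1) and from -0.091 to 0.069 (Tfrc), and for the mean DEX difference from -0.065 to 0.021 (Tfrc). Under DEX they ran from -0.039 to 0.14 (Fth1) and from -0.14 to 0.036 (Ftl1) for AS, and from -0.093 to 0.055 (Fth1) and from -0.024 to 0.15 (Ftl1) for PS against control. For the interactions of Fth1 they ran from -0.13 to 0.048 (AS) and from -0.056 to 0.092 (PS). None of these differences was called.

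Counts over all genes moved by more than 1.5 times as follows. DESeq2 called 431 genes for PS against control with saline (limma 213), 99 for AS (22), 225 and 417 under DEX (28 and 122), and 23 and 439 for the interactions (0 and 49). With the covariate the counts were 134 for PS with saline, 10 and 0 under DEX and 7 for the interaction in AS. With only the groups compared they were 523 for PS with saline, 753 for DEX in AS (1234), 0 for PS under DEX, and 1 and 82 for the interactions. A minimum of 10 reads per library left 9 for AS with saline and dropped Lcn2 from the test. Thinned reads left 15 for PS under DEX, edgeR gave 77 for the interaction in AS and quantile normalization 31. Pseudocount 8, TMM and quantile scaling gave 9, 3 and 4 for the interaction in PS. Without single libraries the counts ran from 57 to 348 and 12 to 49 (PS and AS with saline), 0 to 5 (AS against PS), 611 to 1032, 509 to 871 and 673 to 1985 (DEX in control, PS and AS), 3 to 254 and 3 to 403 (PS and AS under DEX), and 0 to 3 and 4 to 686 (interactions in PS and AS). No scaling moved the median of all genes by more than 0.0149.

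Depth limits Lcn2 most, at 0 to 11 reads in saline libraries, so that its fold depends on the pseudocount.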
